A study of Homo sapiens with 9 samples.

Results

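SAMD5 and CPB1 are 2 of the 35876 genes in a table of RNA sequencing counts from HEK293 cells, and both were low in the libraries labelled Flpo. They were picked from measured values, as genes among those with the largest difference between the Cre and the Flpo groups, so that difference is given here as a description with no test. SAMD5 encodes a protein with a sterile alpha motif (SAM), a small helical fold through which many signalling and scaffold proteins bind one another or themselves, among them the Eph receptors. CPB1 encodes pancreatic carboxypeptidase B, a zinc enzyme that acinar cells of the pancreas secrete as an inactive precursor and that, once activated by trypsin in the gut, removes basic residues from the C-terminus of peptides. Acinar cells normally express CPB1 together with other digestive enzymes, and HEK293, an embryonic kidney line, is no digestive tissue.

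The study held 3 groups of 3 libraries: HEK293 with Cas9 (the Cas9 group), with Cas9 and Cre (Cre) and with Cas9 and Flpo (Flpo). Cas9 is an RNA-guided nuclease that all groups carry, controls included, while Cre and Flpo are site-specific recombinases. The genotype of each group starts with CC, which the labels leave unexplained, and no promoter, guide or clone is named. The replicates are numbered, but nothing says that they came from separate cultures, so p-values measure only the spread between these libraries, which may be technical.

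Library totals ran from 213907 estimated counts (Cre 2) to 8833491 (Flpo 1), a 41.3-fold range. Totals in the Flpo group (4989524 to 8833491) all exceeded those in the Cas9 group (993902 to 3761779) and the Cre group (213907 to 1701730), so total and group cannot be told apart for Flpo. Flpo 2 stood apart, with 22381 genes above 0 against 11372 to 18973 in the other 8 libraries. The extraction text of the labels also speaks of livers. Of 15 genes known from HEK293 cells, such as the neurofilament genes NEFL and NEFM, none was at 0 in all libraries, but PAX2 had 1 count and NEFH 5 counts over all 9. Their summed level lay between 63.5 and 191 CPM, the usual per-library scaling of counts to a common total. Of 15 hepatocyte genes, FGB and FGG (fibrinogen chains) were at 0 in every library and 10 had 10 or fewer counts in all. Flpo 2 had 13 of the 15 above 0, against 3 to 6 in the other 8 libraries.

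SAMD5 (ENSG00000203727.3) lies at chr6:147508927-147737547 on the plus strand of GRCh38, in GENCODE release 29. It has coding transcripts that share the first exon and part in the second, and a count per gene symbol cannot say which was read. The 60 bases around each junction are shown because they are where the coding sequences part, with the first exon in lower case and the second in capitals.
SAMD5-201: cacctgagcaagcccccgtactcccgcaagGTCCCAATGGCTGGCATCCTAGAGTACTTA
SAMD5-202: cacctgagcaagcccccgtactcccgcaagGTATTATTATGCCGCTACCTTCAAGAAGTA
The shared stretch ends at chr6:147509358-147509387, and the second exons begin at chr6:147564394-147564423 in SAMD5-201 and at chr6:147737317-147737346 in SAMD5-202. SAMD5-201 is 6089 bases long with 519 coding bases, and SAMD5-202 is 393 bases long with 291.

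CPB1 (ENSG00000153002.11) lies at chr3:148791102-148860187 on the plus strand. The RefSeq promoter table (GRCh38.p14) matched 1 of the 2 genes, CPB1, with a window from 250 bases before to 50 bases after the start site. That window held the letters TATAAA once, starting 31 bases before the start. The RefSeq start site, chr3:148827811, lies inside the GENCODE gene, whose annotated start is chr3:148791102. Distances to neighbouring genes given below use the GENCODE gene. The site at chr3:148827768-148827797 is shown because it lies where core promoter elements usually stand, with TATAAA in capitals.
CPB1: aacactcaggatTATAAAagcagatgagac
Searched on both strands, TATAAA occurred in 11.5% of the 35116 promoter windows of this length. CANNTG occurred at 2 positions in the CPB1 window and in 68.7% of all windows. GGGCGG (found in 45.0% of windows) and TTTCCC (26.3%) were absent from it. These matches are descriptions of letters, not of binding.

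SAMD5 was high in the Cre libraries, intermediate in the Cas9 libraries and low in the Flpo libraries. The deposited estimated counts were 1203, 499 and 362 in Cas9, 930, 491 and 1857 in Cre, and 217, 213 and 47.1 in Flpo. The Flpo libraries thus gave fewer SAMD5 counts than any other library even before division by their larger totals. Scaled to the smallest total, Flpo 1 to 3 would hold 5.26, 9.14 and 1.20 SAMD5 counts, where Cre 2 holds 491.

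As CPM on library sizes scaled by edgeR's TMM method, SAMD5 measured 999.7, 286 and 103 in Cas9 1 to 3. In Cre 1 to 3 it measured 453, 1833 and 1592, and in Flpo 1 to 3 it measured 37.4, 54.4 and 7.50. The group means were 463 ± 474 CPM in Cas9, 1293 ± 737 in Cre and 33.1 ± 23.8 in Flpo (SD, n = 3 each). All 3 Flpo libraries were below all 6 others, a pattern found in 4.71% of the 11905 genes tested (11.2% when CPM were taken of raw totals). The lowest Cas9 library was 1.90 times the highest Flpo library, and the lowest Cre library 8.32 times. The Cas9 and Cre groups overlapped, since Cre 1 lay below Cas9 1. Within a group the highest library exceeded the lowest 9.67-fold in Cas9, 4.04-fold in Cre and 7.26-fold in Flpo. In bulk RNA, fewer cells with the transcript and less transcript per cell cannot be told apart.

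CPB1 followed the same order of groups at a lower level. Its estimated counts were 82.0, 8.42 and 23.3 in Cas9, 72.0, 65.4 and 198 in Cre, and 1.94, 18.5 and 1.18 in Flpo. The counts of Flpo 1 and Flpo 3 are below the 3 counts that a count of 0 allows. Scaled, CPB1 measured 68.1, 4.59 and 6.57 CPM in Cas9 1 to 3. It measured 35.1, 243 and 169.9 CPM in Cre 1 to 3, and 0.345, 4.60 and 0.160 CPM in Flpo 1 to 3. The means were 26.4 ± 36.1 CPM in Cas9, 149 ± 105 in Cre and 1.70 ± 2.51 in Flpo (SD, n = 3 each). Every Cre library was above every Flpo library, the lowest Cre being 7.63 times the highest Flpo.

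CPB1 in Flpo 2 (4.60 CPM, 95% Wilson interval 2.91 to 7.27) could not be told from Cas9 2 (4.59 CPM, 2.33 to 9.06) or Cas9 3 (6.57 CPM, 4.38 to 9.86). With the estimated counts left unrounded the levels were 4.72 in Flpo 2 and 4.83 in Cas9 2, and the order of the pair turned. Whether the Flpo and Cas9 groups overlap in CPB1 therefore rests on rounding, which was seen only after the levels were computed. Flpo 1 (0.0946 to 1.26 CPM) and Flpo 3 (0.0282 to 0.904 CPM) had intervals below those of all Cas9 and Cre libraries. Intervals cover counting error only.

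**Figure D1:**
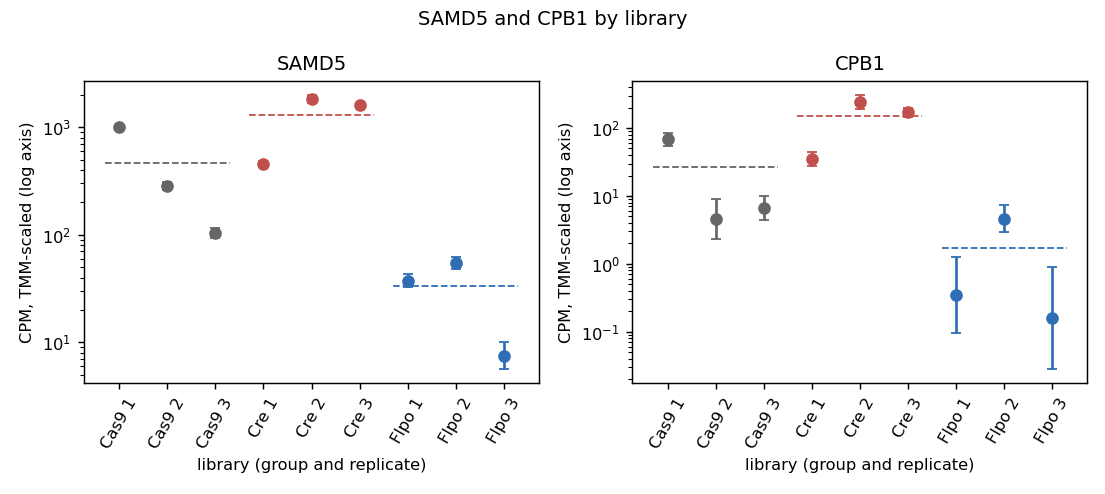
Level of SAMD5 (left) and CPB1 (right) in each library, as TMM-scaled CPM on a log axis; points are libraries coloured by group, bars are 95% Wilson intervals of the count and dashed lines are group means. The SAMD5 points of Flpo (7.50 to 54.4 CPM) lie below the 6 others, while CPB1 in Flpo 2 is level with Cas9 2.

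The Cre libraries stood above the Cas9 libraries on average, by 2.79 times for SAMD5 and 5.64 times for CPB1, but the difference did not pass the test. This comparison does not use the Flpo libraries in which the genes were chosen to be low, although the Cre libraries took part in choosing them. For SAMD5 the log2 fold change was 1.48 ± 0.91 (SE), with adjusted p = 0.619 by edgeR's quasi-likelihood test with Benjamini-Hochberg adjustment. For CPB1 it was 2.51 ± 1.14 (SE), with adjusted p = 0.619. No gene was called higher (0%) or lower (0%) in Cre than in Cas9 at an adjusted p of 0.05, while 879 of 11905 had an unadjusted p under 0.05. With no filter on low counts, of 25386 genes DESeq2 called 2 higher and 2 lower, and edgeR 7 and 44. CPB1 was among the 879 and SAMD5 was not. The Cas9 library with the most of both genes, Cas9 1, weighed on the values: without it the log2 fold changes were 2.71 for SAMD5 and 4.66 for CPB1, still short of the threshold.

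In Flpo against Cas9 the fitted log2 fold changes were -3.80 ± 1.00 (SE) for SAMD5 and -4.00 ± 1.27 for CPB1, 16th and 11th from the bottom of 11905 genes. The ratios of Cas9 to Flpo means were 14.0 and 15.5. In this comparison 0.218% of genes (26) were called higher and 0.0084% (1) lower in Flpo by edgeR. These counts rested on 1 library and on the filter and tool. Without Flpo 2 edgeR called 10.9% of 12595 genes higher and 10.4% lower. With all libraries and no filter on low counts, of 25386 genes DESeq2 called 778 higher and 312 lower, and edgeR 988 and 181. Single libraries moved these values. Without Cas9 1 SAMD5 gave -2.56 and CPB1 -1.83, and without Flpo 2 CPB1 gave -6.45.

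In Cre against Flpo, the comparison the genes were picked from, SAMD5 had a log2 fold change of 5.29 ± 1.07 (SE) and CPB1 of 6.51 ± 1.39. They ranked 9th and 3rd from the top of 11905 genes, of which 6.17% were called higher and 14.3% lower in Cre (19.8% and 24.4% without Flpo 2). The ratios of Cre to Flpo means were 39.0 for SAMD5 and 87.7 for CPB1. CPB1 gave 8.95 when Flpo 2 was left out. The comparisons share libraries, and these values are not separate evidence. With log2 of the library total as a covariate the log2 fold changes shrank to 1.96 for SAMD5 and 2.27 for CPB1 in Cre against Flpo, and to -1.48 and -1.16 in Flpo against Cas9.

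Libraries with larger totals had lower levels of both genes. Of the 36 pairs of libraries, the larger library had the higher SAMD5 share of the raw total in 2 pairs and the higher CPB1 share in 3. Within the Cas9 group SAMD5 was highest in the smallest library (1211 CPM of the raw total in Cas9 1) and lowest in the largest (96.3 in Cas9 3), and within the Cre group Cre 1, the largest, was lowest (547 against 2293 and 2082). The order thus held within those groups, while in Flpo the largest library, Flpo 1, was not the lowest. The part of library total in the differences between groups cannot be told apart from that of the genotype.

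Olfactory receptor genes, which encode odorant receptors of the nasal epithelium, were summed because kidney cells are not known for them. The set was chosen after the levels had been seen. The 379 genes together took 4494, 1771 and 1143 CPM of the raw total in Cas9 1 to 3. They took 2752, 7448 and 5200 in Cre 1 to 3, and 703, 8970 and 557 in Flpo 1 to 3. Without Flpo 2, all 28 pairs of libraries were ordered as for SAMD5. Flpo 2, highest for these genes and with 224 of them above 0 against 71 to 92 elsewhere, was low for SAMD5. The part of whatever moves these genes in the SAMD5 and CPB1 levels was not tested.

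**Figure D2:**
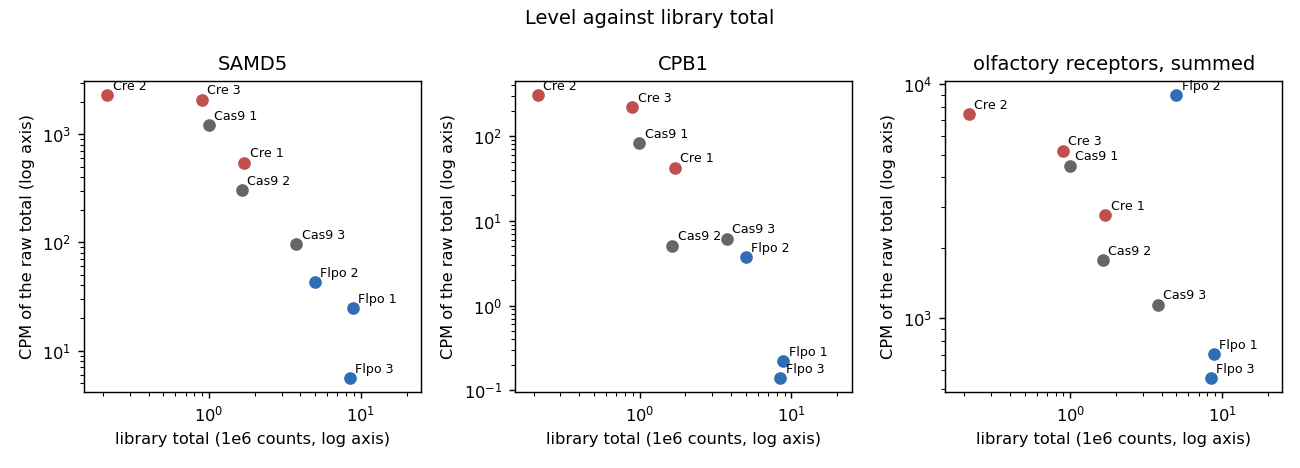
Share of the raw library total (CPM, log axis) against that total (counts, log axis) for SAMD5, CPB1 and the sum of 379 olfactory receptor genes, 1 point per library coloured by group. SAMD5 runs from 2293 CPM in the smallest library to 5.59 in Flpo 3, and the olfactory receptors follow the same order apart from Flpo 2 at 8970.

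Per base of the longest coding transcript (6089 bases for SAMD5, 1773 for CPB1), SAMD5 exceeded CPB1 in every library. The ratio of their counts per base was 4.27, 17.3 and 4.53 in Cas9, 3.76, 2.18 and 2.73 in Cre, and 32.6, 3.36 and 11.6 in Flpo. It varied least in Cre. In Flpo 1 and Flpo 3 it rests on under 3 CPB1 counts.

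The pair tracked each other over the 9 libraries, with Pearson's r = 0.946 for log2(CPM + 1) and Spearman's rho = 0.95, given as a description since the libraries share depth and group. Such likeness was common: 824 of 11292 tested protein-coding genes (7.30%) had r over 0.9 with SAMD5 and 841 (7.45%) with CPB1, and CPB1 was the 291st most like SAMD5. The 5 genes most like SAMD5 were CSAD (r = 0.996), a decarboxylase of taurine synthesis, PLEKHA2 (0.992), a lipid-binding adaptor, PRKAR2A (0.992), a regulatory subunit of protein kinase A, DCAF16 (0.990), a receptor of a ubiquitin ligase, and ZNF8 (0.989), a zinc finger protein. PRKAR2A, at 1190, 709.8 and 406 CPM in Cas9, measured 1028, 2001 and 1647 in Cre and 152, 269 and 73.6 in Flpo. Its order of libraries was that of SAMD5 (rho = 1) over a narrower range.

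The 5 most like CPB1 were ACE (r = 0.994), the angiotensin-converting enzyme, ITGAD (0.990), an integrin chain, ZNF540 (0.989), CLVS1 (0.989) and ZNF415 (0.988). ACE, a metallopeptidase like CPB1 but of another family, measured 72.3, 20.7 and 21.4 CPM in Cas9, 44.3, 126.9 and 90.9 in Cre and 10.9, 21.0 and 7.18 in Flpo. By Spearman's rho 2 of each 5 stayed among the most like genes, and 4 of the 5 for SAMD5 did so with unrounded counts.

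**Figure D3:**
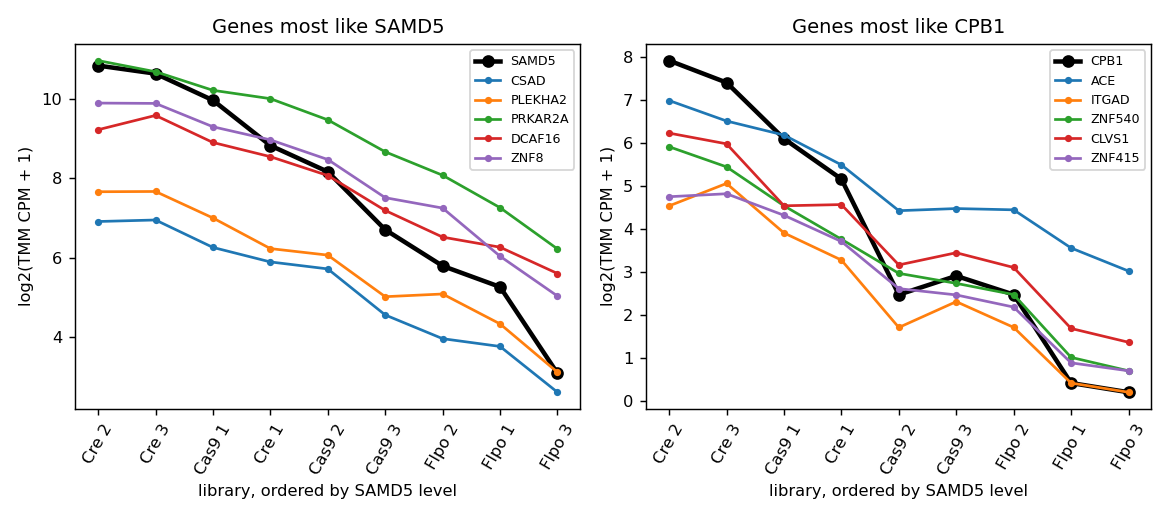
Level, as log2(TMM CPM + 1), of the 5 protein-coding genes most like SAMD5 (left) and CPB1 (right), with each member in black; libraries are ordered from the highest to the lowest SAMD5 level. The like genes fall along the same order, and SAMD5 spans a wider range than its 5 neighbours in likeness.

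Repeated sequence, a feature that the choice did not use, was described for the members and their like genes. When SAMD5-201 was read as overlapping words of 24 bases, 3.58% of them were found again in 10 or more further genes, a larger share than in 79.1% of 11287 tested protein-coding genes. Among the 5 most like genes the repeated share was 4.01% to 9.12%. The longest CPB1 transcript had a share of 0.197%, and those most like CPB1 had 0% to 4.30%. The top value of these, in ZNF415, was above that of SAMD5. Some repeated sequence was found in 53.3% of tested protein-coding genes. The GC content was low in both, 39.3% in SAMD5 and 37.7% in CPB1, below which lay 13.4% and 6.99% of those genes. The part of either feature in the levels was not tested.

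The metallocarboxypeptidase list held 30 genes other than CPB1, mostly carboxypeptidases. Not all were relatives or inhibitors of CPB1: CPVL is a serine carboxypeptidase, and PEBP1 is no carboxypeptidase. Of the 10 tested, edgeR called 0 higher and 3 lower in Cre than in Flpo (6 had an unadjusted p under 0.05). Of all 11905 genes, 6.17% were called higher and 14.3% lower, and 4734 had an unadjusted p under 0.05. The list median was -1.53 against -0.34 for all genes. PEBP1, a kinase-binding protein related to a yeast carboxypeptidase inhibitor, measured 50.2, 3.73 and 11.2 CPM in Cre and 557, 132 and 532 in Flpo. Its log2 fold change was -4.08 ± 0.94 (edgeR adjusted p = 0.0188), and 0.05 with log2 total as a covariate (adjusted p = 0.996). CPE, which trims prohormones in secretory granules, changed by -2.73 ± 0.70 (adjusted p = 0.0228). CPA4, a secreted enzyme of the same subfamily, changed by -2.13 ± 0.64 (adjusted p = 0.0359) and was not called without TMM factors (adjusted p = 0.128). CPM, a membrane carboxypeptidase specific for basic residues, differed by -0.26 ± 0.48 (adjusted p = 0.697). AGBL4, a carboxypeptidase that acts on tubulin and other proteins, is named only because its levels, once seen, ran the way of CPB1: 37.4, 27.0 and 7.995 CPM in Cas9, 31.2, 41.1 and 46.3 in Cre, and 3.795, 22.7 and 1.76 in Flpo. It missed the threshold (2.08 ± 0.86, edgeR adjusted p = 0.0951) but was called higher in Cre without TMM factors (adjusted p = 0.0417), by DESeq2 (0.0486), without the filter (0.0357) and without Flpo 2 (0.00286). AGBL4 was not called with the replicate block, with log2 total as a covariate or with only the 2 groups compared. Nor was it called when any other single library was left out. Without Flpo 2 the list had 1 gene called higher and 6 lower of 11 tested, where 19.8% and 24.4% of all genes were called. PEBP1 and CPVL were among the 6 called lower. CPA1 and CPO, digestive enzymes, and CPN1, of plasma, were at 0 in all libraries.

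Of 41 genes of SAM domain proteins and Eph receptors, 22 were tested, and 2 were called higher and 2 lower in Cre than in Flpo by edgeR (median 0.56), near the shares of all genes, 6.17% and 14.3%. Without TMM factors 5 were called higher and 1 lower. Without Flpo 2 the calls were 4 and 2 of 24, where 19.8% and 24.4% of all genes were called. SAMD15 measured 6.33, 22.4 and 6.86 CPM in Cre and 0.345, 2.04 and 0.319 in Flpo (3.54 ± 1.13, edgeR adjusted p = 0.0430), and ANKS3, a scaffold of primary cilia, was higher by 2.07 ± 0.54 (adjusted p = 0.0247). EPHA2, an ephrin receptor, changed by -4.18 ± 1.29 (adjusted p = 0.0390, 0.0664 without TMM factors) and BICC1, an RNA-binding protein, by -3.19 ± 0.81 (adjusted p = 0.0228). EPHA2 measured 0, 0 and 1.72 CPM in Cre 1 to 3 and 12.4, 7.41 and 15.8 in Flpo 1 to 3. BICC1 was also at 0 in Cre 2, where a count of 0 allows up to 14.0 CPM of the raw total. SAMD12 reached 4372 CPM in Flpo 2 and 75.2 to 676 in the other 8 libraries, and did not pass (adjusted p = 0.137). SAMD4B (0.72 ± 0.46, adjusted p = 0.248) and SAMHD1 (-0.26 ± 0.45, adjusted p = 0.677), the other most abundant genes of the list, did not pass either.

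Markers of pancreatic acinar cells, the usual source of CPB1, were mostly absent, with a few clearly counted. Of 29, CPA1, PRSS2, CELA3A, SYCN, REG1A and PTF1A were at 0 in every library, and 19 had 10 or fewer counts in all. Their sum was 50.3 to 192 CPM in Cas9, 130 to 265 in Cre and 20.6 to 144 in Flpo. Of the 5 tested, 0 were called in Cre against Flpo by edgeR, 1 had an unadjusted p under 0.05 and DESeq2 called 1. With all libraries edgeR called 6.17% of all genes higher and 14.3% lower in Cre. The count of 0 markers rested on Flpo 2. Without it 5 of 7 tested markers were called higher in Cre than in Flpo (CTRC, NR5A2, GP2, SPINK1 and PNLIPRP1), in the direction of CPB1. In the same fit 3 were called lower in Flpo than in Cas9. Of all genes, that fit called 19.8% higher in Cre than in Flpo and 10.4% lower in Flpo than in Cas9. AMY2B, not tested with all libraries, measured 0, 0 and 3.14 CPM in Cas9 and 0.487, 7.47 and 0 in Cre. Its Flpo levels, 10.006, 5.62 and 4.15 CPM, all exceeded those of Cre 1 and Cre 3. Without Flpo 2 CTRC differed by 3.39 ± 0.70 between Cre and Flpo (edgeR adjusted p = 0.00296). The part of these genes in the CPB1 level was not tested. CTRC, chymotrypsin C, made up much of the sum: 122, 62.5 and 29.1 CPM in Cas9, 86.2, 164 and 181.9 in Cre, and 19.0, 82.8 and 8.30 in Flpo (1.97 ± 0.78, adjusted p = 0.0840, and 0.0375 without TMM factors). NR5A2 (1.42 ± 0.88, adjusted p = 0.238) and GP2 (1.59 ± 0.94, adjusted p = 0.217) did not pass with Flpo 2 included. With log2 total as a covariate CTRC gave -0.22 in Cre against Flpo (edgeR adjusted p = 0.990), NR5A2 -1.52 and GP2 -0.50.

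Of 15 bile duct markers, a cell type in which SAMD5 has been described, 5 were tested and ONECUT1 was at 0. In Cre against Flpo edgeR called 1 higher and 1 lower, where 6.17% and 14.3% of all genes were called. MUC1, a membrane mucin, was higher in Cre than in Flpo (3.33 ± 0.90, edgeR adjusted p = 0.0268), although it was at 0 in Cre 2, the library with the most SAMD5, where a count of 0 allows up to 14.0 CPM of the raw total. KRT19, a duct keratin, was lower in Cre (-2.83 ± 0.87, adjusted p = 0.0383, and 0.0780 without TMM factors) and was likewise at 0 in Cre 2. With log2 total as a covariate KRT19 gave 1.17 (edgeR adjusted p = 0.887). With only the 2 groups compared, 0 of the list were called in either direction. That fit called 710 of all 12759 genes higher and 1451 lower in Cre than in Flpo. ANXA4 (-0.17 ± 0.53, adjusted p = 0.820) and CLDN4 (1.61 ± 0.69, adjusted p = 0.103) did not pass. The sum of the list was 70.6 to 98.1 CPM in Cas9, 52.3 to 77.0 in Cre and 72.6 to 174 in Flpo.

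Of the hepatocyte genes, 2 were tested and 0 called in Cre against Flpo by edgeR (0 at an unadjusted p under 0.05, 0 by DESeq2): TF, transferrin, at 0.30 ± 0.82 (adjusted p = 0.796) and HP, haptoglobin, at 1.49 ± 1.00 (adjusted p = 0.272). With all libraries edgeR called 6.17% of all genes higher and 14.3% lower in Cre than in Flpo. Without Flpo 2 both TF and HP were called higher in Cre than in Flpo, TF by 2.09 ± 0.68 (edgeR adjusted p = 0.0234) and HP by 3.53 ± 0.95 (adjusted p = 0.00952). HP was then also called lower in Flpo than in Cas9. In that fit 19.8% of all genes were called higher in Cre than in Flpo and 10.4% lower in Flpo than in Cas9. Their list summed to 29.7 to 95.6 CPM in Cas9, 62.4 to 133 in Cre, and 20.4, 141 and 10.5 in Flpo 1 to 3. Of the HEK293 genes, 7 were tested and SIX2, a factor of kidney progenitors, was lower in Cre (-4.04 ± 0.97, adjusted p = 0.0201). NEFL, a neurofilament gene, did not pass (1.62 ± 0.54, edgeR adjusted p = 0.0501). Without Flpo 2, 0 of 7 tested HEK293 genes were called higher and 2 lower in Cre than in Flpo (SIX2 and ZIC2). In that fit 24.4% of all genes were called lower in Cre.

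In Cre against Cas9, 0 of the 51 tested genes of the 6 lists were called by edgeR (1 at an unadjusted p under 0.05, 0 by DESeq2), and in Flpo against Cas9 0 were called (8 at an unadjusted p under 0.05, 4 by DESeq2). In Cre against Flpo 3 of these 51 genes were called higher and 7 lower in Cre, where 6.17% and 14.3% of all genes were called. These calls depended on single libraries, in both directions: there were more calls without Flpo 2, as given above. Without Cre 2, without Cre 3 or without Flpo 1, edgeR called 0 genes of the whole table, with 4721, 3359 and 3233 at an unadjusted p under 0.05.

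**Figure D4:**
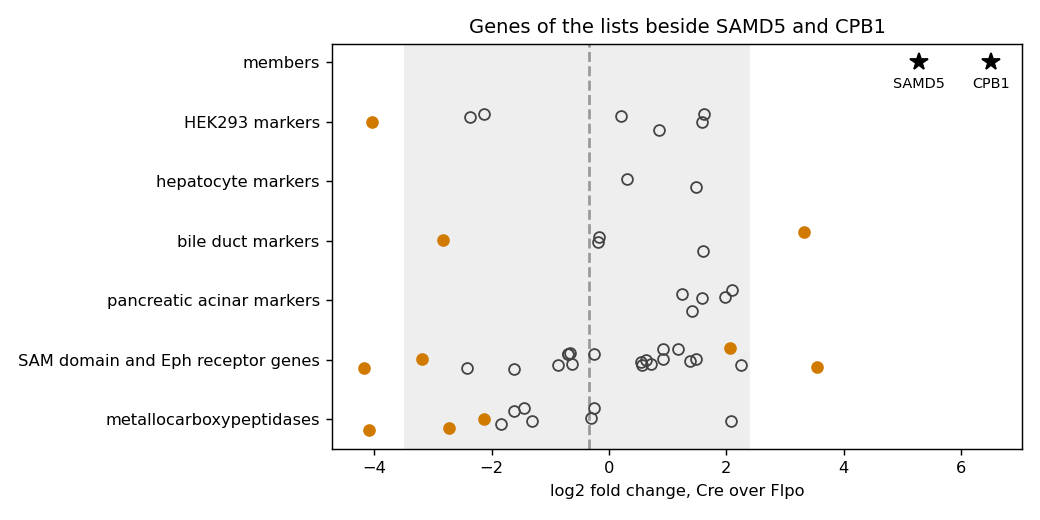
Log2 fold change, Cre over Flpo, of every tested gene of the 6 lists, with SAMD5 and CPB1 as stars; filled circles are genes called by edgeR, open circles those not called, the grey band spans the 5th to 95th percentile of all 11905 genes and the dashed line is their median. SAMD5 at 5.29 and CPB1 at 6.51 lie beyond every list gene, and 3 filled circles lie above 0 and 7 below.

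The protein-coding genes around CPB1 either were not called between Cre and Flpo by edgeR or had too few counts to be tested. CPA3, the mast cell carboxypeptidase whose gene begins 5069 bases after CPB1, was at 0 in 8 libraries and had 1 count in Flpo 3. AGTR1, an angiotensin receptor gene 48094 bases before CPB1, had 1 count in Flpo 2, 6 in Flpo 3 and none elsewhere. The tested neighbour that ran most like CPB1 was the pseudogene CPHL1P, 369169 bases after it and named after its values were seen. It measured 8.31, 1.15 and 0 CPM in Cas9, 5.36, 18.7 and 14.6 in Cre, and 0.863, 3.58 and 0.319 in Flpo. It missed the threshold in Cre against Flpo (2.95 ± 1.26, edgeR adjusted p = 0.101) and passed without Flpo 2 (4.23, adjusted p = 0.0245) and without the filter (0.0262). CPHL1P also missed it without TMM factors (edgeR adjusted p = 0.0525) and under DESeq2 (adjusted p = 0.0539). GYG1, which primes glycogen synthesis, differed between Cre and Flpo by 0.81 ± 0.55 (edgeR adjusted p = 0.282). HLTF, a DNA repair helicase, differed by 0.53 ± 0.45 (adjusted p = 0.390) and HPS3, of lysosome-related organelles, by -0.53 ± 0.75 (adjusted p = 0.611). CP, the ceruloplasmin gene, and TM4SF18 had at most 19.2 and 6 counts in any library and were not tested. Near SAMD5 the protein-coding gene within 500 kb was STXBP5, a syntaxin-binding protein, with 0 to 21 counts and no test. The gene spans of the pseudogene HMGB1P30 and the antisense gene AC092979.1 overlap that of CPB1, and the span of AL033504.1 overlaps that of SAMD5. HMGB1P30 was counted on its own, with 1 count in Flpo 2 and none elsewhere, while AC092979.1 and AL033504.1 are not among the counted genes. Overlap of exons was not examined. The strand setting of the counting is not given, so reads of any shared exon may not be told apart.

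**Figure D5:**
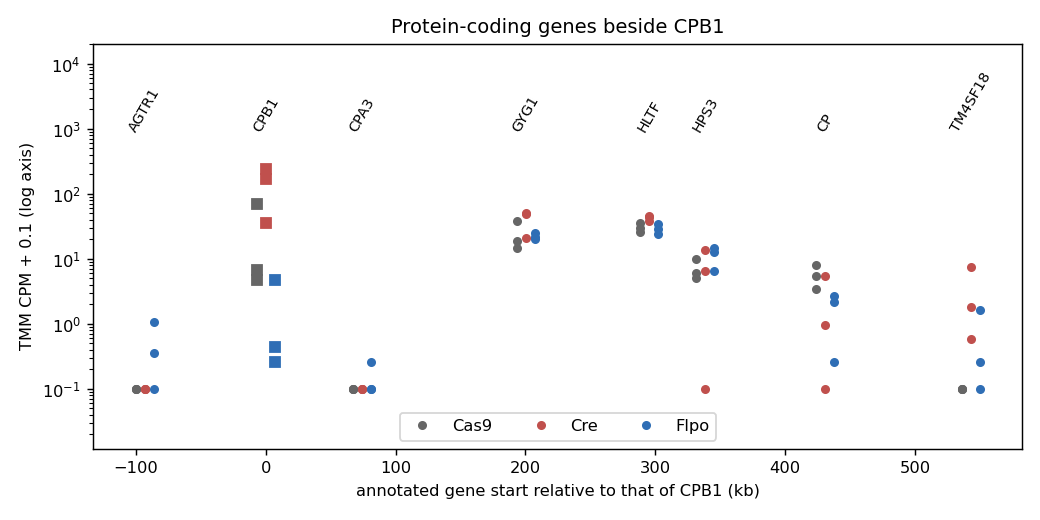
Level of protein-coding genes within 500 kb of CPB1, as TMM CPM + 0.1 on a log axis, placed by the distance of their annotated start from that of CPB1 in kb; each point is a library, coloured by group, and squares are CPB1. CPB1 spans 0.160 to 243 CPM, while GYG1 and HLTF stay within a narrow range in all groups.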

How the data were processed

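The authors deposited 1 table of estimated counts per gene symbol, not normalized, for 9 libraries; 48.7% to 60.8% of nonzero values per library had decimals. Salmon 0.14.1 and hg38 are named in the submitters' processing notes, without their role; the annotation, filters and strand setting are not given in the sources used here. TRIzol extraction and TruSeq libraries are named in the labels.

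Counts were rounded to whole numbers. The fit used edgeR 4.0.16 (R 4.3.3) with TMM scaling, its default filter (minimum count 10, minimum total 15) and the quasi-likelihood test on all 9 libraries, and left 11905 genes; Benjamini-Hochberg adjusted p under 0.05 was a call. Standard errors are the log2 fold change over the square root of F. The fit was also run on simulated counts with the same spread for every gene. That setting differs from these libraries, so the run does not show how accurate the fit is here. CPM used the rounded counts and TMM-scaled sizes, and unrounded counts were tried after the rounded levels were seen. Shares of the raw total used unrounded counts. Alternatives were raw totals, DESeq2 1.42.0, no filter, a replicate block, only the 2 groups compared, log2 total as a covariate, and each library left out. Nothing says whether libraries of the same replicate number were made together, and the main fit did not pair them. The mean correlation of same-numbered deviations was -0.342, -0.0963 and 0.113 over the 3 comparisons, with single values from -0.559 to 0.53. Such values cannot decide whether the numbers pair the samples.

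The members and lists were chosen with earlier results of these data known. Named genes were SAMD5, CPB1, each list's 3 most abundant tested genes and up to 6 called genes, protein-coding neighbours within 500 kb, and the 5 genes most correlated in log2(CPM + 1) with each member. The result of 1 gene that this rule names is not reported here. Olfactory receptor genes, repeated words, motifs and ratios per base were chosen after the values were seen. Coordinates, lengths and 24-base words come from GENCODE release 29, which held 35378 of the 35876 symbols.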

Additional observations from a re-analysis of the deposited data

How the results depend on the processing

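No log2 fold change of SAMD5 or CPB1 changed sign under any alternative run, and Cre against Cas9 stayed short of the threshold in all (edgeR or DESeq2 adjusted p from 0.241 to 1 for SAMD5 and 0.104 to 1 for CPB1). With log2 total count as a covariate, SAMD5 and CPB1 moved to -1.48 and -1.16 in Flpo against Cas9 and to 1.96 and 2.27 in Cre against Flpo. Under it 0 genes of the table were called in Cre against Flpo (731 at an unadjusted p under 0.05). Of the list genes named above as called in that comparison, PEBP1 (0.05) and KRT19 (1.17) changed sign. CPE (-0.56), EPHA2 (-1.14), BICC1 (-1.40), SIX2 (-2.19), ANKS3 (0.80) and SAMD15 (0.58) shrank, while MUC1 (3.30) and CPA4 (-3.38) did not lose size. The cause was not tested. Over the 9 fits that left out 1 library each, SAMD5 ranged from 0.99 to 2.71 in Cre against Cas9, from -4.38 to -2.56 in Flpo against Cas9 and from 4.79 to 5.84 in Cre against Flpo. CPB1 ranged from 1.96 to 4.66, from -6.45 to -1.83 and from 5.90 to 8.95. Where a fit left 2 libraries in a group, it pooled the spread over groups.

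With the replicate block, SAMD5 and CPB1 gave 2.11 and 2.73 in Cre against Cas9 (adjusted p = 0.694 for both), -3.75 and -4.29 in Flpo against Cas9, and 5.86 and 7.02 in Cre against Flpo; the block changed no call of theirs. It ended the calls of SAMD15 (adjusted p = 0.0556), MUC1 (0.0690), KRT19 (0.0531) and CPA4 (0.0575) in Cre against Flpo. Genes called over the table in Cre against Flpo went from 735 higher and 1705 lower to 495 and 1073 with the block, and to 2039 and 840 without TMM factors, which moved the median of all genes from -0.34 to 0.44. Under DESeq2, with 27 genes of the metallocarboxypeptidase list in place of 10, that list's median was 0.65. Flpo against Cas9 called 6 genes higher and 0 lower with the block, 11 and 1 without TMM factors, and 988 and 181 without the filter. Low counts limit CPB1 in Flpo 1 and Flpo 3, at under 3 counts each.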
